A study of Sparus aurata with 9 samples.

Results

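The sequences described here are the microRNAs of the miR-181 family in primary cultures of fast skeletal muscle cells of gilthead sea bream (Sparus aurata), a farmed marine fish. Every entry of the deposited miRNA table named as a miR-181 was taken, whatever its letter, arm or variant suffix. These were 17 of 862 entries. Where a sequence stood under more than 1 name its values were equal, and it was counted once, which left 14 of 830 distinct sequences, 4 from the 5p arm and 10 from the 3p arm. The table holds 9 libraries in 3 groups of 3, all from cells grown to day 8 in complete medium, when myoblasts and newly formed myotubes were present together. AA cells spent 12 h in a nutrient restriction medium and then 24 h with amino acids, IGF1 cells spent 12 h in that medium and then 24 h with insulin-like growth factor 1, and CTR cells spent 36 h in it. By the study's methods the restriction medium held Earle's salts, glucose and vitamins but no amino acids, the AA medium was DMEM, and the IGF1 medium was the restriction medium with the growth factor and its albumin carrier, still without amino acids. AA and IGF1 therefore differ from CTR in more than the amino acids or the growth factor alone. The cultures were started from dissociated fast muscle of fingerlings, with no sorting of cells described, and in bulk RNA of this kind fewer cells of a type and less RNA per cell cannot be told apart. The study describes 3 independent cell cultures. The labels do not say which libraries share a culture, so the p-values reflect only how far these libraries spread.

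A miRNA gene is transcribed as a hairpin, from which a short duplex is cut. Its strands are named 5p and 3p after the arm they come from. Usually 1 strand is loaded into an Argonaute protein and the other is degraded, and the loaded strand finds messenger RNAs mainly through its seed, bases 2 to 8 counted from its 5′ end. In mouse, miR-181 is known to increase when myoblasts differentiate and to repress the homeobox gene Hoxa11, and in mammals it is also known for setting the sensitivity of T lymphocytes to antigen. The best studied strand of the family is the 5p strand.

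The 10 sequences on which the results turn are given 5′ to 3′ as the deposited table writes them, with T for U and the seed in capitals. They are shown because the seed, and therefore the set of possible targets, separates the arms and separates miR-181a from miR-181b on the 3p arm but not on the 5p arm. The last is a predicted candidate outside the family by name, shown because its seed and body are those of miR-181b-3p.
miR-181a-5p: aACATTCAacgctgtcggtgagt
miR-181b-5p: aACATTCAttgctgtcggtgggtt
miR-181b-5p L-1R+4: aCATTCATtgctgtcggtgggtttt
miR-181a-3p: aCCATCGAccgttgattgtacc
miR-181a-2-3p: aCCATCGAccgttgactgtacc
miR-181a-5-3p: aCCATCGAccgttgactgtgcc
miR-181b-3p: cTCACTGAacgatgaatgcaa
miR-181b-3-3p: gCTCACTGaacgatgaatgcaa
miR-181b-3p variant: cTCACTGAtcaatgaatgcaga
PC-3p-5483: cTCACTGAacgatgaatgcaaa

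The 5p sequences miR-181a-5p, miR-181b-5p and miR-181a R+2 shared the seed ACATTCA. The seed CCATCGA was that of miR-181a-3p, miR-181a-2-3p, miR-181a-5-3p with its R+1 and R+2 forms, and mir-181c-2-p3. The seed TCACTGA was that of miR-181b-3p, miR-181b-3p variant and mir-181d-p3. In the names, L and R with a number give the bases gained or lost at the 5′ and 3′ ends against the miRBase sequence. The table also marks substitutions: the entry called miR-181b-3p here is 1 base shorter at the 3′ end than its miRBase sequence and differs from it by 2 substitutions, while miR-181b-3p variant has its full length and 1 substitution. The plain name was given to the more abundant entry and does not mean that it is the closer match. Nor is miR-181b-3p variant an end form of miR-181b-3p: they are 3 edits apart and neither contains the other. Whether they come from different genes was not tested. A change at the 5′ end moves the seed: miR-181b-3-3p is miR-181b-3p with 1 more base at the 5′ end and had the seed CTCACTG, and miR-181b-5p L-1R+4 lacked the first base of miR-181b-5p and had the seed CATTCAT. No entry of another miRNA number carried any of these 5 seeds, and the predicted candidate PC-3p-5483 was the only other entry that did. It is miR-181b-3p with 1 further base at the 3′ end. The sequence of miR-181a-5p was listed in 3 entries, of miR-181a and miR-181c, and that of miR-181b-5p under names of miR-181b and miR-181d, so reads of these genes cannot be told apart on the 5p arm. The names come from precursors of other fish, and the number of miR-181 genes in sea bream was not analysed here.

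Values are the authors' normalized reads. The value of 1 read was inferred per library from the steps between low values. Summed over all entries this gave 9766620 to 11214788 reads in AA, 7241678 to 9534840 in IGF1 and 7045311 to 8010694 in CTR. These sums count a sequence once under each of its names, so they overstate the reads somewhat. By them the AA libraries were the deepest. Summed muscle miRNAs (miR-1, miR-133, miR-206 and miR-499) lay between 720535 and 871345 normalized reads in AA, 502621 and 642784 in IGF1, and 502772 and 701242 in CTR. Of the 5 blood markers 4 were present (1861 to 2963 normalized reads in AA, 1996 to 3404 in IGF1, 1634 to 3167 in CTR), with miR-150 not in the table used. The endothelial miR-126 lay between 99099 and 106527 in AA, 96187 and 104250 in IGF1, and 89392 and 112133 in CTR. Of the epithelial markers 4 of 5 were present, with miR-141 not in the table used, at 425 to 515 in AA, 438 to 653 in IGF1 and 682 to 817 in CTR. The liver marker miR-122 lay between 296 and 382 in AA, 302 and 412 in IGF1, and 508 and 601 in CTR. Neural markers were at 85.9 to 157 in AA, 105 to 124.3 in IGF1 and 102 to 165 in CTR. Muscle sums were thus higher, and epithelial and liver sums lower, in every AA library than in any CTR library. Epithelial and liver sums were lower in every IGF1 library than in any CTR library too, while muscle sums of IGF1 and CTR overlapped. The epithelial markers did not move together between AA and CTR. Their log2 fold changes were -1.39 and -1.06 for the sequences of miR-203, -0.30 for miR-200b, -0.25 for miR-429b and 0.31 for miR-200a. The part of these markers in the results was not tested.

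The family held 1.18 ± 0.106% of the normalized reads of distinct sequences in AA, 0.928 ± 0.150% in IGF1 and 1.08 ± 0.0686% in CTR (SD, n = 3 each). Its most abundant sequence was miR-181a-5p, number 26 of the 830 sequences by mean level, with 39243, 43877 and 41136 normalized reads in AA, 31297, 26103 and 45904 in IGF1 and 46701, 44765 and 48343 in CTR. It was followed by miR-181a-3p (number 52) and miR-181b-5p (number 54). These exchanged places between libraries, with miR-181a-3p the higher in 4 of 9, so their order is not settled. All other sequences lay far lower: miR-181b-5p had at least 16422 normalized reads in every library, against at most 3769 for the next, miR-181a-5-3p. The 3p strand of miR-181a was thus an abundant product, while that of miR-181b was not, with miR-181b-3p at number 227. The order below it was miR-181b-3p variant, miR-181b-3-3p, miR-181a-5-3p R+2, miR-181b-5p L-1R+4, mir-181c-2-p3 and mir-181d-p3, and the ranges of neighbours in this order overlapped. Reads of a miRNA do not scale with its length, but ligation and amplification differ between sequences, so the order is one of reads.

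**Figure D1:**
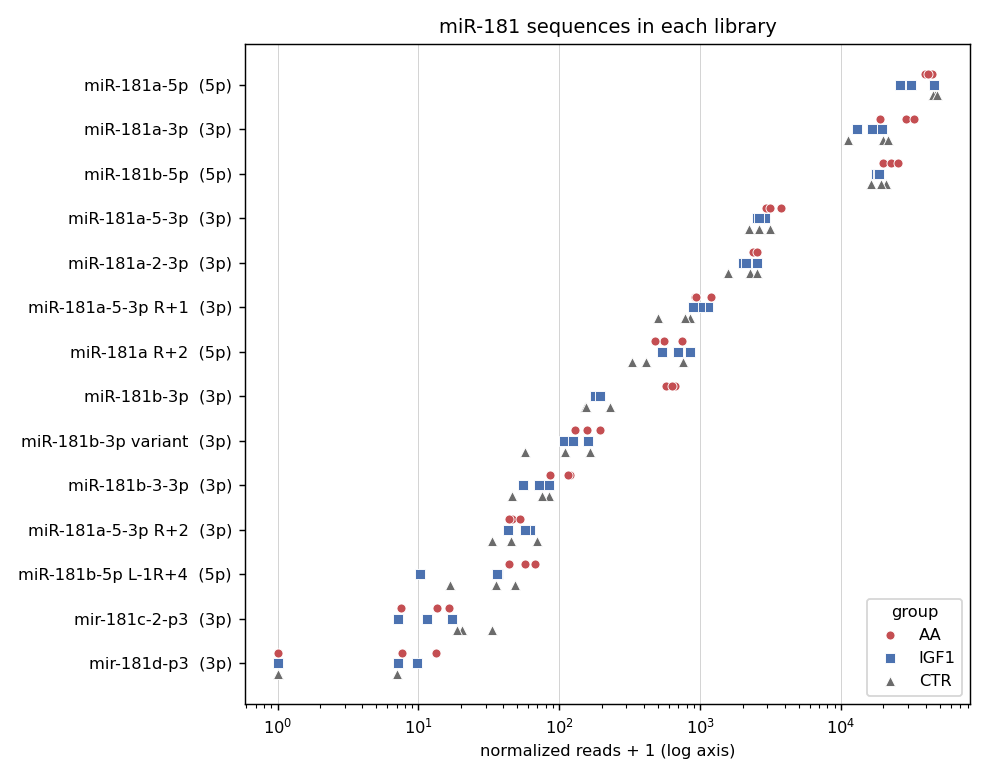
Normalized reads + 1 (log axis) of the 14 miR-181 sequences in each of the 9 libraries, with the arm in parentheses and 1 point per library (AA above IGF1 above CTR). The AA libraries of miR-181b-3p lie between 570.1 and 662, apart from the IGF1 and CTR libraries at 151 to 229. The groups of the other sequences overlap or lie closer together.

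The comparison of AA with CTR asked what the return of amino acids, with the change of medium, did to the family. Of the family, miR-181b-3p alone passed the test. It had 570.1, 662 and 633 normalized reads in AA, against 229, 151 and 154 in CTR. Every AA library lay above every CTR library, and the lowest AA value was more than double the highest CTR value. The log2 fold change was 1.82 with a standard error of 0.192 (limma with Benjamini-Hochberg adjustment over 594 tested entries, adjusted p = 0.000985), a 3.53-fold difference with a 95% confidence interval of 2.63 to 4.76. In reads, as inferred from the table, these were 738, 795 and 685 in AA and 190, 131 and 139 in CTR, so counting error is small beside the difference. No tested entry had a smaller p-value in this comparison, and miR-181b-3p was number 16 by fold change. It was the only sequence of the 13 tested that passed in the higher direction, where 1.85% of all tested entries passed, and none passed in the lower direction, where 0.505% of all did (2.36% in either direction). The call was kept under all 20 alternative settings, with log2 fold changes between 1.72 and 2.03 and adjusted p between 6.97e-06 and 0.0112.

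**Figure D2:**
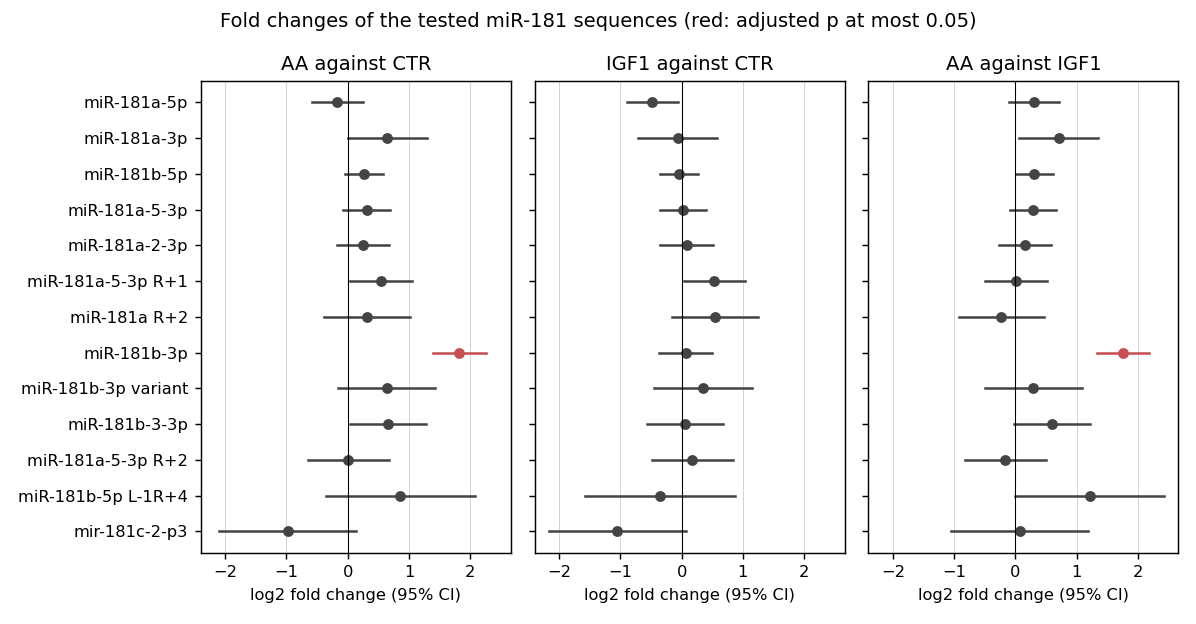
Log2 fold changes (points) with 95% confidence intervals (lines) of the 13 tested miR-181 sequences, from limma, with a panel each for AA against CTR, for IGF1 against CTR and for AA against IGF1. Red marks an adjusted p of at most 0.05, which miR-181b-3p reached for AA against CTR (1.82) and AA against IGF1 (1.76) and no sequence reached for IGF1 against CTR.

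The sequences that differ from miR-181b-3p by 1 base at an end were also at their highest in AA. PC-3p-5483, which has 1 more base at the 3′ end, had 146, 179 and 171 normalized reads in AA, against 36.2, 42.7 and 93.0 in CTR. All AA libraries lay above all CTR libraries, and the log2 fold change was 1.63 ± 0.332 (SE; limma, adjusted p = 0.0280). This call was less firm than that of miR-181b-3p: it was lost without each of the AA libraries (adjusted p between 0.0763 and 0.149), without CTR replicate 2 (0.121), without IGF1 replicate 2 (0.0519), with quantile normalization (0.0583), without the intensity trend (0.0520) and in a fit of the AA and CTR groups alone (0.0640). The form with 1 more base at the 5′ end, miR-181b-3-3p, had 85.0, 117 and 114 normalized reads in AA, against 83.3, 75.0 and 45.4 in CTR. The lowest AA library lay just above the highest CTR library, and the log2 fold change of 0.66 ± 0.278 did not pass (limma, adjusted p = 0.273). It passed only when libraries were weighted by their spread (log2 fold change 1.06, adjusted p = 0.0112).

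Within the family, the only other tested sequence with the seed of miR-181b-3p did not pass. MiR-181b-3p variant, which is 3 edits away from miR-181b-3p, had 193, 157 and 127 normalized reads in AA, against 165, 56.5 and 109 in CTR, and these ranges overlapped (log2 fold change 0.64 ± 0.355, limma, adjusted p = 0.388). The ratio of miR-181b-3p to this variant within a library was 2.95, 4.21 and 4.96 in AA, 1.12, 1.65 and 1.57 in IGF1 and 1.39, 2.67 and 1.42 in CTR. The lowest AA ratio was above the highest IGF1 and CTR ratios (exact two-sided permutation test, p = 0.10 for each, the smallest that 3 against 3 allows). This ratio and the other ratios of single sequences below were chosen after the values had been seen. Mir-181d-p3, a shorter form contained in the variant, was below the minimum of 10 normalized reads in 3 libraries and was not tested. It had 12.4, 6.66 and 0 normalized reads in AA, 8.78, 6.15 and 0 in IGF1 and 6.04, 0 and 0 in CTR, where the 3 reads that a count of 0 allows correspond to 2.77 normalized reads in AA replicate 3, 3.48 in IGF1 replicate 3, and 3.46 and 3.32 in CTR replicates 2 and 3.

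**Figure D3:**
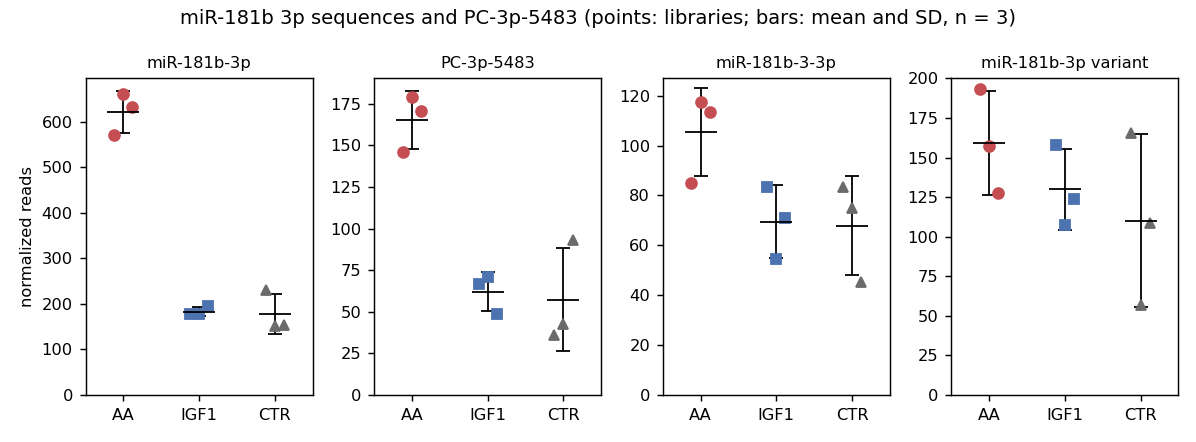
Normalized reads of miR-181b-3p, PC-3p-5483, miR-181b-3-3p and miR-181b-3p variant in AA, IGF1 and CTR, each panel with its own axis from 0, with 1 point per library and bars for the mean and SD (n = 3). The groups separate most for miR-181b-3p (mean 622 in AA, 183 in IGF1 and 178 in CTR), while the variant overlaps between all groups.

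The 5p strand of miR-181b, which is cut from the other arm, did not pass in the same comparison. It had 19899, 22769 and 25431 normalized reads in AA, against 16422, 20780.1 and 19264 in CTR, and the ranges overlapped (log2 fold change 0.27 ± 0.138, limma, adjusted p = 0.347). MiR-181a-5p was lower in every AA library than in any CTR library, at 39243 to 43877 against 44765 to 48343, but by little (log2 fold change -0.17 ± 0.184, adjusted p = 0.659). The remaining 5p sequences overlapped between AA and CTR. MiR-181a R+2 had 739, 557 and 475 normalized reads in AA, against 749, 328 and 413 in CTR, and miR-181b-5p L-1R+4 had 43.3, 55.8 and 66.5 in AA, against 15.7, 47.3 and 34.3 in CTR.

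Among the 3p strands of miR-181a, miR-181a-3p had 28965, 33079 and 19019 normalized reads in AA, against 11156, 19928 and 21442 in CTR. AA replicate 3 lay within the CTR range, and the log2 fold change of 0.64 ± 0.288 did not pass (limma, adjusted p = 0.297). MiR-181a-5-3p had 3769, 2930.3 and 3132 normalized reads in AA, against 3138, 2229 and 2604 in CTR. Its R+1 form, 1 base longer at the 3′ end, had 1201, 911 and 931 normalized reads in AA, against 849, 498 and 778 in CTR. This form was higher in every AA library (log2 fold change 0.54 ± 0.224, limma, adjusted p = 0.258). MiR-181a-2-3p, with 2491, 2380.4 and 2531 normalized reads in AA and 1577, 2253 and 2544 in CTR, overlapped, as did the R+2 form, with 44.8, 43.3 and 51.7 in AA and 68.8, 32.3 and 44.3 in CTR. The low sequence mir-181c-2-p3 went the other way, with 15.5, 12.5 and 6.46 normalized reads in AA and 19.3, 32.3 and 17.7 in CTR (log2 fold change -0.98 ± 0.4997, limma, adjusted p = 0.347).

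Across the 13 tested sequences the median log2 fold change of AA against CTR was 0.32, beside 0.08 over all 594 tested entries. Of the 13, 11 were above 0, as were 58.1% of all tested entries. Groups did not overlap for 3 sequences that were higher in AA (miR-181a-5-3p R+1, miR-181b-3p and miR-181b-3-3p) and 2 that were lower (miR-181a-5p and mir-181c-2-p3), where 12.6% and 9.93% of all tested entries did the same. The median was 0.54 for the 9 sequences of the 3p arm and 0.29 for the 4 of the 5p arm. The sequences share genes and reads of related forms, so they are not independent, and these medians carry no test.

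**Figure D4:**
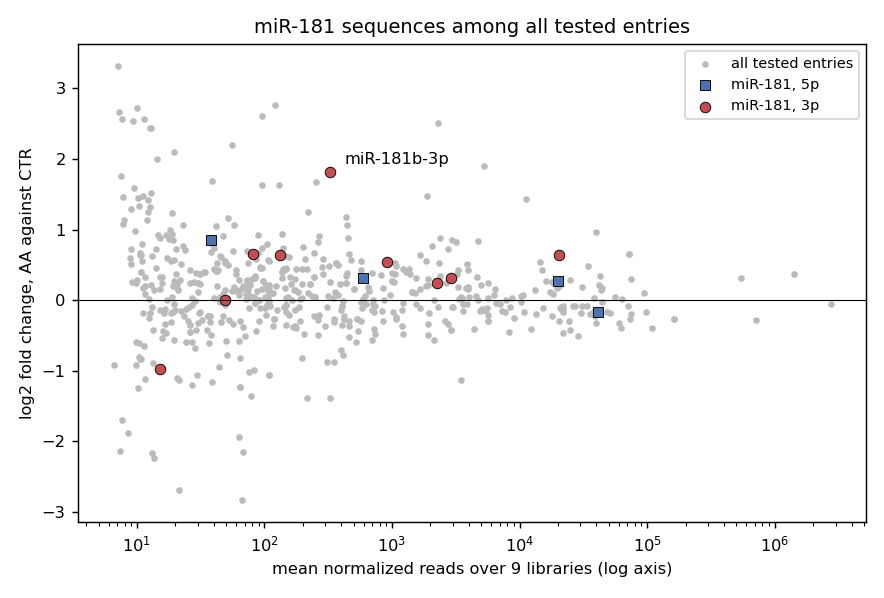
Log2 fold change of AA against CTR plotted against the mean normalized reads over the 9 libraries (log axis) for the 594 tested entries (grey), with the miR-181 sequences of the 5p arm as blue squares and of the 3p arm as red circles. The miR-181b-3p point stands at 1.82, while the other miR-181 sequences lie between -0.98 and 0.86.

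IGF1 against CTR asked what the growth factor did in a medium without amino acids. No miR-181 sequence passed (limma with Benjamini-Hochberg adjustment). At an unadjusted p under 0.05 there were 2 of 13, and of all 594 tested entries 0.0% passed and 61, or 10.3%, had an unadjusted p under 0.05. These values are from the fit without the replicate number as a block. With the block no miR-181 sequence passed either. The unadjusted p was then under 0.05 for miR-181a-5p (0.0173), miR-181a-5-3p R+1 (0.0141) and miR-181a R+2 (0.0180; limma). None of the alternative settings gave a call either. MiR-181b-3p had 177, 177 and 195 normalized reads in IGF1, against 229, 151 and 154 in CTR. The IGF1 libraries lay within the CTR range, with a log2 fold change of 0.07 and a 95% confidence interval of -0.36 to 0.49 (limma, adjusted p = 0.912). As a ratio the interval runs from 0.778 to 1.41, so changes within these bounds are not excluded.

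The sequences nearest to the threshold for IGF1 against CTR were of other seeds. MiR-181a-5p had 31297, 26103 and 45904 normalized reads in IGF1, against 46701, 44765 and 48343 in CTR, a log2 fold change of -0.48 ± 0.184 (limma, adjusted p = 0.373). IGF1 replicate 3 lay within the CTR range, and the other IGF1 libraries were lower than every CTR library. MiR-181a-5-3p R+1 had 1133, 992 and 893 normalized reads in IGF1, all above the CTR libraries at 849, 498 and 778 (log2 fold change 0.54 ± 0.224, limma, adjusted p = 0.440). Mir-181c-2-p3, with 6.14, 16.4 and 10.4 normalized reads in IGF1 against 19.3, 32.3 and 17.7 in CTR, was lower in every IGF1 library (log2 fold change -1.05 ± 0.4997, limma, adjusted p = 0.468). These were the only 1 higher and 1 lower of the 13 whose groups did not overlap, where 5.56% and 7.74% of all tested entries did so. The median log2 fold change of the 13 was 0.06 and that of all tested entries 0.05.

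Between the 2 treatments the difference was again that of miR-181b-3p, with 570.1, 662 and 633 normalized reads in AA and 177, 177 and 195 in IGF1. The groups were far apart beside their spread, averaging 622 ± 46.8 normalized reads in AA and 183 ± 10.1 in IGF1 cells (SD, n = 3 per group). The log2 fold change was 1.76 ± 0.192 (limma, adjusted p = 0.00252), or 3.38-fold with a 95% confidence interval of 2.51 to 4.55. This comparison is also the test of whether the effects of AA and IGF1 against their common CTR differ. It was the only called sequence of the 13, in a comparison in which 0.842% of all tested entries passed, all of them higher in AA, and it had the smallest p-value of all 594. All 20 alternative settings kept the call, with adjusted p between 3.61e-05 and 0.0300. PC-3p-5483 had 146, 179 and 171 normalized reads in AA, against 66.7, 70.8 and 48.7 in IGF1. Its log2 fold change of 1.41 ± 0.332 did not pass (limma, adjusted p = 0.0886), although it did without CTR replicate 1 (0.0432), without CTR replicate 3 (0.0315), with library weights (0.0153) and in a fit of these groups alone (0.0292).

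The other sequences did not pass between AA and IGF1, the smallest adjusted p being 0.517 (limma). Groups did not overlap for 5 of 13, all higher in AA, where 9.6% of all tested entries were higher without overlap and 5.72% were lower. Besides miR-181b-3p these were miR-181b-5p, with 19899, 22769 and 25431 normalized reads in AA and 17625, 18314 and 18703 in IGF1, and miR-181b-3-3p, with 85.0, 117 and 114 in AA and 83.4, 54.4 and 70.7 in IGF1. The list was completed by miR-181a-5-3p, with 3769, 2930.3 and 3132 in AA and 2904, 2516 and 2623 in IGF1, and by miR-181b-5p L-1R+4, with 43.3, 55.8 and 66.5 in AA and 36.0, 34.9 and 9.28 in IGF1. Every sequence named for miR-181b except the variant was therefore higher in each AA library than in any IGF1 library, but only miR-181b-3p passed. The adjusted p was 0.553 for miR-181b-5p, 0.588 for miR-181b-3-3p and 0.555 for miR-181b-5p L-1R+4 (limma). MiR-181b-3-3p separated by little, at 85.0 against 83.4 in the nearest libraries. These are related forms, and miR-181b-5p was also listed as miR-181d, so they are not independent. MiR-181a-3p overlapped, with 28965, 33079 and 19019 in AA and 12907, 19441 and 16636 in IGF1. The median log2 fold change of the 13 was 0.29, beside -0.00 over all tested entries.

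The arms of a hairpin are made together. The ratio of 3p to 5p reads within a library shows whether reads of the arms changed by different amounts. The miR-181b ratio need not compare the arms of a single hairpin. Its 5p sequence was also listed as miR-181d, and its 3p sequences may come from several genes. A change in a single gene could move this ratio without a difference between its arms, which was not tested. For miR-181b, the tested sequences of that name were summed per arm, without PC-3p-5483, which carries no miRNA number. The 3p arm had 4.26, 4.11 and 3.43% of the reads of the 5p arm in AA. These percentages were 2.38, 1.86 and 2.09% in IGF1 and 2.92, 1.36 and 1.601% in CTR. All AA libraries were above all IGF1 and CTR libraries, and CTR replicate 1 stood above the other CTR libraries. On the log2 scale the ratio differed by 1.08 ± 0.286 between AA and CTR, which did not pass over the 87 miRNAs with both arms tested (limma, adjusted p = 0.0813), where 4.6% passed. The call depended on the setting: the difference passed without CTR replicate 1 (1.41, adjusted p = 0.00351) and, with all libraries kept, when they were weighted by their spread (1.32, adjusted p = 0.00209) or when the replicate number was entered as a block (1.08, adjusted p = 0.0434). Between AA and IGF1 the ratio differed by 0.90 ± 0.286 (adjusted p = 0.190), where 1.15% of the 87 passed, and this too passed without CTR replicate 1 (adjusted p = 0.0293). Between IGF1 and CTR it differed by 0.18 ± 0.286 (adjusted p = 0.798, none of the 87 called).

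The summed 3p arm joins sequences that behaved unlike each other. For miR-181b-3p alone, there were 2.87, 2.91 and 2.49 reads per 100 reads of miR-181b-5p in AA, 1.01, 0.969 and 1.04 in IGF1 and 1.397, 0.727 and 0.799 in CTR (exact two-sided permutation test, p = 0.10 for AA against each of the others, the smallest that 3 against 3 allows). The variant had 0.971, 0.691 and 0.501 reads per 100 reads of miR-181b-5p in AA, 0.896, 0.588 and 0.664 in IGF1 and 1.01, 0.272 and 0.564 in CTR, so that its groups overlapped. The AA libraries thus stood apart in the ratio of miR-181b-3p, and not in that of the variant.

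For miR-181a the 3p arm had 91.2, 88.5 and 61.7% of the reads of the 5p arm in AA, 59.2, 95.7 and 47.9% in IGF1 and 35.4, 55.3 and 56.2% in CTR. The AA libraries were above the CTR libraries but not above IGF1 replicate 2, and the log2 difference between AA and CTR of 0.73 ± 0.316 did not pass (limma, adjusted p = 0.188). The 5p reads in these ratios include a sequence listed as both miR-181a and miR-181c, and 1 listed as both miR-181b and miR-181d. The first was counted for miR-181a and again for miR-181c, which is 1 of the 87. The miR-181c ratio thus set mir-181c-2-p3, low in every library, against 5p reads that cannot be assigned to miR-181c alone. It did not pass between AA and CTR (log2 difference -0.81 ± 0.488, limma, adjusted p = 0.358). Sequences named for miR-181a and miR-181b thus shared a 5p seed and differed widely in how many 3p reads they had per 5p read.

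**Figure D5:**
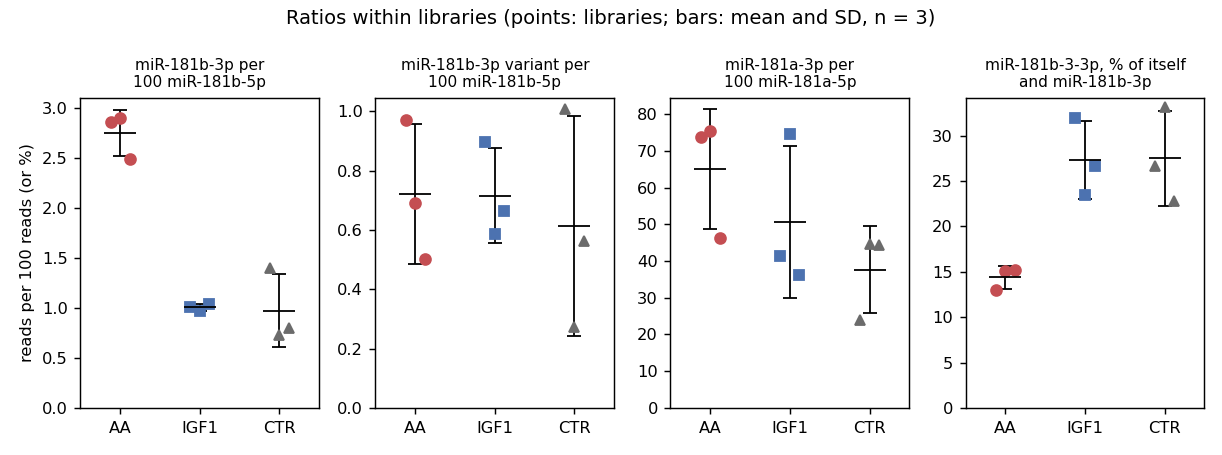
Ratios within each library for AA, IGF1 and CTR: miR-181b-3p, miR-181b-3p variant and miR-181a-3p in reads per 100 reads of the 5p sequence named, and miR-181b-3-3p as a percentage of itself and miR-181b-3p, each panel with its own axis from 0 (points are libraries, bars the mean and SD, n = 3). The first panel separates AA (2.49 to 2.91) from IGF1 and CTR (0.727 to 1.397), and the last has AA lowest (13.0 to 15.2%).

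The ends of the sequences also differed in their shares. MiR-181b-3-3p, the form with the shifted seed, made up 13.0, 15.1 and 15.2% of the reads of itself and miR-181b-3p in AA, 32.0, 23.5 and 26.6% in IGF1 and 26.6, 33.2 and 22.8% in CTR. This share was lower in every AA library than in any other (exact two-sided permutation test, p = 0.10 for AA against each of the others). It is no separate result, since it follows from the larger difference of miR-181b-3p given above. MiR-181b-3-3p itself was not lower in AA, averaging 105 normalized reads there, 69.5 in IGF1 and 67.9 in CTR. The form with 1 more base at the 3′ end, PC-3p-5483, made up 20.4, 21.3 and 21.3% of itself and miR-181b-3p in AA, 27.3, 28.5 and 20% in IGF1 and 13.6, 22.02 and 37.7% in CTR, and these overlapped. For miR-181a-5-3p, the R+1 form took 23.9, 23.4 and 22.6% of the reads of its 3 lengths in AA, 27.6, 27.9 and 25.0% in IGF1 and 20.9, 18.1 and 22.7% in CTR. Here the IGF1 libraries stood above all others (exact two-sided permutation test, p = 0.10 against AA and against CTR). On the 5p arm, miR-181b-5p took 33.6, 34.2 and 38.2% of the reads of miR-181a-5p and miR-181b-5p in AA, 36.0, 41.2 and 28.9% in IGF1 and 26.02, 31.7 and 28.5% in CTR, with every AA library above every CTR library (exact two-sided permutation test, p = 0.10).

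Of the 439 sequences compared, the 5 whose log2 levels over the 9 libraries were most like those of miR-181b-3p were miR-1 (Pearson r = 0.94), miR-145-3p (0.93), miR-133a-2-5p (0.91), let-7g-3p (0.89) and miR-206-5p (0.87). MiR-1, miR-133 and miR-206 are miRNAs of muscle cells, known for promoting or tuning myoblast differentiation in mammals, and miR-145 is best known from smooth muscle. The sequences of miR-133 and miR-206 found here were minor 5p strands, and that of miR-145 was a 3p strand. What is known of these miRNAs need not hold for those strands. The points are 9 libraries of 3 groups, so any sequences that differ between AA and the other groups give such values, and no p is attached. MiR-1, for example, had 57580 ± 5303 normalized reads in AA, 31008 ± 4553 in IGF1 and 29547 ± 1032 in CTR (SD, n = 3 each). Within the family r with miR-181b-3p was 0.78 for miR-181b-3-3p, 0.72 for miR-181a-5-3p, 0.68 for miR-181b-5p, 0.57 for miR-181a-3p and 0.13 for miR-181a-5p, and it was 0.82 for PC-3p-5483. The sequences most like miR-181a-5p were let-7a-5-p5 (r = 0.90), miR-429b (0.85), miR-193a-5p (0.75), let-7g-2-p3 (0.72) and a variant of miR-26b (0.70), of which let-7a-5-p5, miR-429b and the miR-26b variant had under 40 normalized reads on average in each group.

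A pair of lists of miRNAs known from myoblast differentiation were set beside the family. The list of myomiRs also named miR-208, which had no tested entry. Of its 13 tested sequences, all of miR-1, miR-133, miR-206 and miR-499, 5 rose and none fell in AA against CTR, where 1.85% of all tested entries were called higher and 0.505% lower, with a median log2 fold change of 0.96 beside 0.08 for all tested entries. They were miR-1 (0.96), miR-133a-2-5p (1.90), miR-206-5p (1.48), miR-133b-5p (2.51) and miR-1-5p (2.62). With miR-1 as the exception, these are minor strands of their hairpins, as miR-181b-3p is. The share of minor strands among all tested entries was not counted, so this is a description only. In IGF1 against CTR 0 of the 13 passed (limma; median 0.23), and between AA and IGF1 2 rose, miR-1 and miR-133a-2-5p (median 0.89), where 0.842% of all tested entries were called higher. The other list held miR-24, miR-26, miR-27, miR-29, miR-214, miR-221 and miR-222, and also miR-378 and miR-486, which had no tested entry. Of its 65 tested sequences 2 fell in AA against CTR, mir-29d-p5 (log2 fold change -2.84) and mir-29a-1-p5 (-1.35), and none rose, where 0.505% of all tested entries were called lower and 1.85% higher, with a median of 0.02. None of the 65 passed in IGF1 against CTR (median 0.11) or between AA and IGF1 (median -0.13).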

How the data were processed

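Small RNA libraries (TruSeq) were trimmed by the authors with scripts of their own, and unique sequences of 18 to 26 nt were assigned by BLAST to miRBase precursors of other species. The deposited table gives a signal, normalized reads per entry and library. How reads were normalized, and which genome build was used, is not given in the sources used here. The deposited p-values and group means were not used. A change of total small RNA per cell, or reads shared between names, is not visible in such values.

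The test covered entries that reached 10 normalized reads in 3 or more of 9 libraries (594 of 862, 13 of the 14 miR-181 sequences). Values entered as log2(normalized reads + 1), which understates changes of low entries, into 1 model over all libraries in limma 3.58.1 (R 4.3.3) with an intensity trend. Two-sided p-values were adjusted over all entries by Benjamini-Hochberg. The threshold was 0.05, with none on the fold change. The log2 ratio of summed 3p to 5p reads was fitted in the same way, without the trend, for 87 miRNAs. AA and IGF1 were compared with the same CTR libraries. Single ratios were compared by exact permutation tests. The fit was also run on simulated data, with independent noise of equal spread in every group. The spread of these libraries differed between groups, so the simulation does not show how reliable the calls are here. Python 3.11.15, pandas 2.3.3, scipy 1.17.1 and matplotlib 3.10.9 were used.

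Low values (under 150) were whole reads within 0.02 reads for 79.3 to 83.1% per library. Whole reads were therefore not recovered throughout, and no count model was run. Floors for a count of 0 (3 reads) cover counting error only.

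The miR-181 sequences, the lists of other miRNAs, the markers and the tests were chosen with earlier results of these data known. Outside miR-181, sequences were named if they shared a seed with the family, were among the 5 most like miR-181b-3p or miR-181a-5p in Pearson r, or belonged to the lists and passed the test. Alternatives were other pseudocounts, filters and scalings, no trend, library weights, the compared groups alone, identical sequences once, a replicate block and each library left out. Deviations of equally numbered IGF1 and CTR libraries from their group means correlated at 0.396, 0.317 and 0.302, so by a limit of 0.1 these groups were taken as paired by number. The IGF1 against CTR values given above are nevertheless from the fit without the block. With the block no miR-181 sequence passed between them, the smallest adjusted p being 0.176, for miR-181a-5-3p R+1 (limma). The values did shift: the adjusted p of miR-181a R+2 was 0.568 without the block and 0.186 with it (limma). That of miR-181a-5p was 0.373 without and 0.184 with it. With the block the unadjusted p was under 0.05 for miR-181a-5p (0.0173), miR-181a-5-3p R+1 (0.0141) and miR-181a R+2 (0.0180; limma).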

Additional observations from a re-analysis of the deposited data

Results flagged for a closer look

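The effects of AA and IGF1 on miR-181b-3p, each against the same CTR libraries, differed by 1.76 on the log2 scale (limma with Benjamini-Hochberg adjustment, adjusted p = 0.00252), with a log2 fold change of 1.82 in AA and 0.07 in IGF1. The value was higher in 3 of 3 AA libraries than in any IGF1 library.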

How the results depend on the processing

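The number of miR-181 sequences that passed was 1 for AA against CTR, 0 for IGF1 against CTR and 1 for AA against IGF1, and it stayed so without any single library (1 to 1, 0 to 0 and 1 to 1). It became 2 only for AA against CTR with weights per library, a fit whose weights did not fully converge. The count over all entries, 14, 0 and 5 in the same order, was less stable. It was 8 to 40, 0 to 2 and 1 to 13 without single libraries, and the highest of these were all without CTR replicate 1. That library had the fewest inferred reads (7045311) and the most entries at 0 (191). The mean SD of log2 values over tested entries was 0.540 in CTR, 0.341 in AA and 0.384 in IGF1. What part this had in the calls was not tested. The counts were 104, 5 and 20 with weights and 31, 2 and 10 with the replicate block. For AA against IGF1 they were 10 with a minimum of 50 normalized reads and 1 without the trend.

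The miR-181b arm ratio of AA against CTR (1.08) passed with weights (1.32, adjusted p = 0.00209 in limma) and with the replicate block (1.08, adjusted p = 0.0434), and ranged from 0.858 to 1.41 without single libraries. For AA against IGF1 (0.90) it passed with weights (0.91, adjusted p = 0.0234) and in a fit of these groups alone (0.90, adjusted p = 0.0451), with 0.81 to 1.00 without single libraries. For IGF1 against CTR (0.18) it changed sign without CTR replicate 2 (-0.044 to 0.51 over single libraries left out). The cause was not tested.

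Equally numbered AA and CTR libraries correlated at 0.264, -0.121 and 0.0677 and AA and IGF1 libraries at 0.317, 0.0368 and 0.349 in their deviations from group means, so the numbers were not taken to pair them. The replicate block changed no call of a miR-181 sequence.

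Of the single sequences, only values far from the threshold changed sign, and the cause was not tested. For AA against CTR these were miR-181a-5-3p R+2 with a pseudocount of 10 (-0.0022), equal totals (-0.015) and quantile normalization (-0.066), and -0.24 to 0.29 without single libraries. With quantile normalization the IGF1 against CTR values of miR-181a-5-3p (-0.068), miR-181a-2-3p (-0.096) and miR-181b-3-3p (-0.060) changed sign, as did miR-181a-2-3p (-0.12) and PC-3p-5483 (-0.24) with weights. Without single libraries the IGF1 against CTR values ran from -0.36 to 0.11 for miR-181a-3p, -0.14 to 0.034 for miR-181b-5p, -0.095 to 0.15 for miR-181a-5-3p, -0.12 to 0.23 for miR-181a-2-3p, -0.038 to 0.26 for miR-181b-3p, -0.063 to 0.70 for miR-181b-3p variant, -0.20 to 0.23 for miR-181b-3-3p, -0.082 to 0.45 for miR-181a-5-3p R+2, -0.79 to 0.25 for miR-181b-5p L-1R+4 and -0.0415 to 0.63 for PC-3p-5483. For AA against IGF1, miR-181a-5-3p R+1 changed sign with equal totals (-0.027), quantile normalization (-0.085) and weights (-0.081) and ran from -0.12 to 0.10 without single libraries, and mir-181c-2-p3 ran from -0.25 to 0.41. Depth limits the sequences under about 50 normalized reads, where a library holds few reads.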
